A study of Saccharomyces cerevisiae with 18 samples.

Results

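The genes described here serve the unfolded protein response of budding yeast and the Hrd1 branch of endoplasmic reticulum-associated degradation (ERAD). They were selected by their gene symbol in the platform annotation: HAC1, IRE1, ULI1 (YFR026C), DER1, HRD1, HRD3, USA1, YOS9, CUE1 and UBC7, which are 10 of the 5449 S. cerevisiae genes measured. Of these, only IRE1 encodes a sensor of unfolded protein; HAC1 encodes the transcription factor that the sensor activates, ULI1 is a gene of unknown molecular function named for its induction by the response, and the other 7 encode ERAD components. ULI1 was picked on its strain-dependent signal in these same arrays, so its values are a description with no test, and it is left out of every count. Counts of called genes below are therefore over 9 genes.

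Proteins that enter the secretory pathway fold in the endoplasmic reticulum. When unfolded protein accumulates there, Ire1 cuts an intron out of the HAC1 messenger RNA, the spliced message is translated, and the Hac1 protein activates genes for folding, transport and ERAD. In ERAD, misfolded proteins are recognised, passed through the membrane by the Hrd1 complex, tagged with ubiquitin and handed to the proteasome. Secretion of a foreign protein such as an amylase puts load on this system, and disulfide formation in the endoplasmic reticulum normally passes electrons to oxygen.

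Transcript levels were measured in total RNA on 18 Affymetrix Yeast Genome 2.0 arrays, from 3 strains in aerobic or anaerobic batch culture with 3 biological replicates in each of the 6 groups. All 3 strains derive from the host CEN. PK 530-1C, in which the chromosomal TPI1 gene for triose phosphate isomerase is deleted, and all carry a 2 μm plasmid with POT1, the fission yeast isomerase gene (tpi1), which supports growth on glucose. NC holds the plasmid with the TPI1 promoter and no amylase. AAC, labelled as the high producer, expresses amylase behind the alpha factor leader from the TPI1 promoter, and AAP, labelled as a lower producer, expresses the same fusion from the TEF1 promoter. Each culture held 500 ml at 30 °C, stirred at 600 rpm, and was harvested near an optical density of 1; 250 ng of RNA was labelled per array. The labels do not say whether a strain was represented by 1 transformant or several. The deposited values were read as log2 signals, and a fold change below is 2 to the power of the log2 difference; levels are compared within a gene only, never between genes. Because each array measured RNA from a whole culture, fewer transcripts per cell and fewer cells with the transcript cannot be told apart. Equal amounts of RNA were labelled, so a change in total RNA per cell would not be seen.

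The labels were checked first. Host TPI1 was above background on 0 of 18 arrays, background being the 95th percentile of the fission yeast probe sets (5.55 to 5.60 by array). Plasmid tpi1 averaged 6.24 in NC, 9.23 in AAC and 11.3 in AAP in aerobic culture, and 6.71, 9.92 and 12.4 in anaerobic culture, so the strains also differed in the transcript of the plasmid's own marker; what amylase does to a gene and what the plasmid does cannot be told apart. The array labelled AAP aerobic replicate 3 stood apart from its group. Its tpi1 signal was 9.24 against 12.42 and 12.38 on the other AAP aerobic arrays, its HES1 signal (an oxysterol-binding protein gene) was 9.24 against 5.55 and 5.54, and its mean correlation over all tested genes was 0.978 with its own group and 0.993 with AAC aerobic. Most member values that use this array are therefore also given without it, from a fit to 17 arrays. Some results that were not called, mainly those printed as ranges, are given with the array only. Where the arrays of groups are said not to overlap, the same held for 62.8%, 57.1% and 46.2% of all probe sets between the conditions in NC, AAC and AAP. Between strains it held for 51.7% (AAC and NC), 14.3% (AAP and NC) and 17.1% (AAC and AAP) in aerobic culture and for 29.2%, 38.0% and 50.0% in anaerobic culture. Array medians lay between 7.08 and 7.13. All 10 genes had a single probe set of their own that was above background on all 18 arrays, although ULI1, USA1 and YOS9 lay close to it in several groups.

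In the mean of the strains HAC1 was lower without oxygen, and its difference was largest in AAP. DER1, UBC7 and CUE1 were higher without oxygen in the mean of the strains, although DER1 was not called in AAP. IRE1, HRD1, HRD3, USA1 and YOS9 stayed within narrow ranges, with group means that spanned 0.16, 0.36, 0.27, 0.12 and 0.18 log2 units. Of these, HRD1, HRD3 and YOS9 were also called higher without oxygen in the mean of the strains, by 0.12, 0.14 and 0.11. HRD1 was called higher in AAC than in NC in aerobic culture. ULI1 was high in AAC, above all in anaerobic culture, where its group mean was 8.51. The gene was picked on its signal in these arrays, so this is a description only.

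HAC1 encodes the transcription factor of the response. In aerobic culture its log2 signal on replicates 1 to 3 was 10.18, 10.31 and 10.18 in NC, 10.47, 10.43 and 10.41 in AAC, and 10.07, 10.25 and 9.68 in AAP. In anaerobic culture it was 9.80, 9.86 and 10.06 in NC, 10.07, 10.01 and 10.23 in AAC, and 9.21, 9.07 and 8.74 in AAP. All 3 anaerobic AAP arrays were below every other array of the series. How often a group separates in this way from all other arrays was not counted over all probe sets. The lowest of the aerobic AAP values was that of the array that stood apart. By group mean the order was AAC aerobic, NC aerobic, AAC anaerobic, AAP aerobic, NC anaerobic and AAP anaerobic; the ranges of NC aerobic, AAC anaerobic, AAP aerobic and NC anaerobic overlapped from each to the next, while AAC aerobic above and AAP anaerobic below did not overlap their neighbour.

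**Figure D1:**
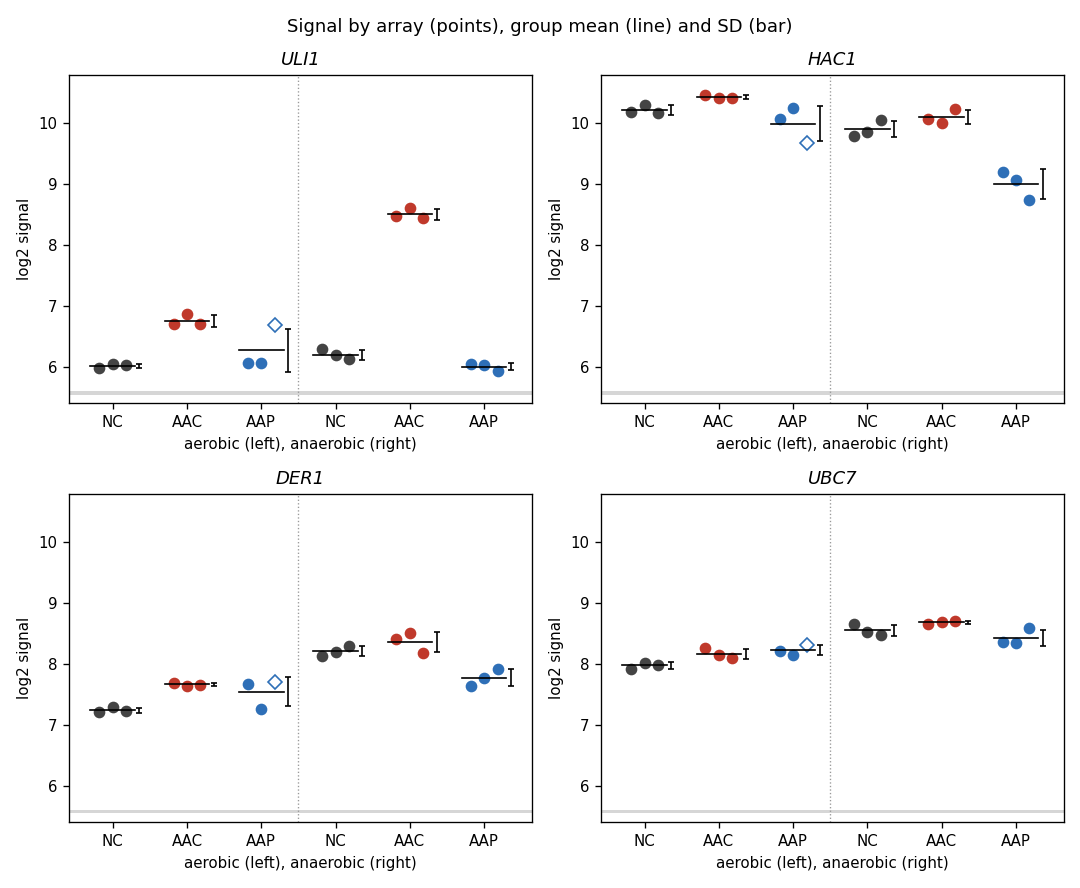
Log2 signal (y axis) of ULI1, HAC1, DER1 and UBC7 on each of the 18 arrays by strain and oxygen (x axis). Points are arrays, lines are group means, bars are 1 SD (n = 3), the open diamond is the array labelled AAP aerobic replicate 3, and the grey band is the range of the background level over arrays, 5.55 to 5.60. ULI1 is high in AAC, above all in anaerobic AAC (8.44 to 8.61), HAC1 is low in anaerobic AAP (8.74 to 9.21), and DER1 and UBC7 have their lowest group mean in aerobic NC.

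Averaged over the strains, anaerobic culture lowered HAC1 by a log2 difference of -0.55 ± 0.08 (SE), a 1.46-fold decrease (adjusted p = 1.21e-05), and by -0.60 without the array that stood apart (adjusted p = 4.25e-07). In AAP alone the difference was -0.99 ± 0.13, a 1.99-fold decrease (adjusted p = 1.77e-05), and -1.15 without that array. In NC it was -0.32 (95% interval -0.59 to -0.04, adjusted p = 0.0541) and in AAC -0.33 (-0.61 to -0.05, adjusted p = 0.0507), which missed the threshold of 0.05; without that array, which lies in neither group but enters the shared estimate of the spread, the adjusted p-values were 0.0152 and 0.0133. The call in NC also passed without NC anaerobic replicate 3 (-0.39, adjusted p = 0.0382) and that in AAC without AAC anaerobic replicate 3 (-0.39, adjusted p = 0.041). Both passed with only the groups compared in the fit (adjusted p = 0.00957 and 0.00371). They also passed with dim probe sets left out (0.0482 and 0.045) and with trend and robust settings (0.0479 and 0.0444). Median centring brought only NC past the threshold (0.0495), and quantile normalization only AAC (0.0406). Neither passed with the replicate number as a block. The oxygen effect of AAP differed from that of NC by -0.67 ± 0.18 (interaction, adjusted p = 0.031; -0.84 and 0.00437 without that array). This interaction was no longer past the threshold when any of 7 other single arrays was left out, with adjusted p-values of 0.0517 to 0.0778: NC aerobic replicate 1, 2 or 3, AAP anaerobic replicate 2 or 3, or NC anaerobic replicate 2 or 3. With only the groups compared in the fit its adjusted p was 0.0745. Between AAC and AAP the oxygen effects differed by 0.66 (95% interval 0.27 to 1.05, adjusted p = 0.0601), and by 0.82 without that array (adjusted p = 0.00519); between AAC and NC the difference was -0.01 (-0.41 to 0.38, adjusted p = 0.981).

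Among strains in anaerobic culture, HAC1 was 1.87-fold lower in AAP than in NC (log2 difference -0.90 ± 0.13, adjusted p = 0.000545). It was 2.14-fold higher in AAC than in AAP (1.10 ± 0.13, adjusted p = 4.66e-05). The AAP arrays did not overlap those of NC or AAC, as for 38.0% and 50.0% of all probe sets. AAC and NC differed by 0.20 (95% interval -0.08 to 0.48, adjusted p = 0.362). In aerobic culture the HAC1 differences were 0.21 for AAC against NC (adjusted p = 0.265, and 0.0075 with only those groups in the fit), -0.23 for AAP against NC (0.639) and 0.44 for AAC against AAP (0.0688). Without the array that stood apart AAP against NC gave -0.06 and AAC against AAP gave 0.28 (adjusted p = 0.0848). A single value was deposited for HAC1 per array, and whether its probes separate the spliced from the unspliced message is not given in the sources used here; these values describe the amount of HAC1 message and not its splicing.

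IRE1, which encodes the sensor kinase and endonuclease, stayed between 6.40 and 6.69 on all 18 arrays. Its log2 signal in aerobic culture was 6.50, 6.54 and 6.56 in NC, 6.45, 6.46 and 6.64 in AAC, and 6.45, 6.51 and 6.46 in AAP. Without oxygen it was 6.53, 6.69 and 6.67 in NC, 6.55, 6.49 and 6.40 in AAC, and 6.53, 6.61 and 6.56 in AAP. Neighbouring groups overlapped along the whole order of means, and IRE1 passed the threshold in none of the 13 contrasts. Its mean oxygen effect was 0.05 (95% interval -0.02 to 0.12, adjusted p = 0.197; 0.05 and 0.233 without the array that stood apart), which passed without AAC aerobic replicate 3 (0.07, adjusted p = 0.0475). By strain the oxygen effect lay between -0.04 and 0.10, and the interactions lay between -0.14 and -0.00. AAC against NC in anaerobic culture gave -0.15 (-0.27 to -0.03, adjusted p = 0.104). The strain difference passed the threshold when NC anaerobic replicate 1 was left out (-0.20, adjusted p = 0.0288).

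ULI1 is described by its levels. In aerobic culture its log2 signal was 5.98, 6.05 and 6.03 in NC, 6.71, 6.87 and 6.70 in AAC, and 6.07, 6.07 and 6.68 in AAP. Without oxygen the signal was 6.29, 6.19 and 6.13 in NC, 8.48, 8.61 and 8.44 in AAC, and 6.04, 6.03 and 5.94 in AAP. The anaerobic AAC arrays lay above all others, followed by the aerobic AAC arrays, an order not counted over all probe sets. The array labelled AAP aerobic replicate 3 lay close to the aerobic AAC arrays while the other AAP arrays lay with NC.

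As differences between ULI1 group means, AAC exceeded NC by 0.74 log2 units in aerobic and 2.31 in anaerobic culture, a 1.67-fold and a 4.94-fold ratio, and the anaerobic value ranked 1 of 5498 probe sets from the highest. AAC exceeded AAP by 0.49 in aerobic culture (0.69 without the array that stood apart) and by 2.50 in anaerobic culture, a 5.66-fold ratio that ranked 2 of 5498. AAP differed from NC by 0.25 in aerobic culture, which was 0.05 without that array, and by -0.20 in anaerobic culture. The anaerobic minus aerobic difference was 0.18 in NC, 1.75 in AAC and -0.27 in AAP (-0.06 without that array), and 0.55 as the mean of the strains, a mean of values with different signs. These values chose the gene.

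The probe sets with the highest Pearson correlation to ULI1 over the 18 arrays, among 5019 above background on average, were THI4 (0.963), AGA1 (0.961), RTA1 (0.956), FMP16 (0.954), YNL134C (0.953) and URH1 (0.942). Without the array that stood apart the first 5 were the same and FUN19 (0.945) was the sixth. For HAC1 they were BNA3 (0.923), UTH1 (0.900), ERG10 (0.891) and SKS1 (0.872) over 18 arrays, and LSC2 (0.952), BNA3 (0.927), RAD14 (0.922) and BNA1 (0.910) over 17, so that only BNA3 was in both lists. The arrays fall into 6 groups and share their group means, and these correlations are descriptions.

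DER1 encodes a membrane protein that forms, with Hrd1, the path by which misfolded luminal proteins leave the endoplasmic reticulum. In aerobic culture its log2 signal was 7.21, 7.29 and 7.22 in NC, 7.69, 7.65 and 7.66 in AAC, and 7.68, 7.27 and 7.70 in AAP. The anaerobic values were 8.14, 8.20 and 8.30 in NC, 8.41, 8.50 and 8.17 in AAC, and 7.64, 7.76 and 7.92 in AAP. NC and AAC were higher without oxygen on every array, whereas the anaerobic and aerobic AAP arrays overlapped; the aerobic AAP arrays split, with replicate 2 near NC and replicates 1 and 3 near AAC.

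Anaerobic culture raised DER1 by 0.63 ± 0.06 over the strains, a 1.55-fold increase (adjusted p = 2.08e-07; 0.66 without the array that stood apart). The increase was 1.96-fold in NC (0.97 ± 0.11, adjusted p = 1.52e-06) and 1.62-fold in AAC (0.70 ± 0.11, adjusted p = 5.68e-05). In AAP it was 0.23 ± 0.11 (95% interval 0.00 to 0.45, adjusted p = 0.104), and 0.30 without the array that stood apart (adjusted p = 0.0405). The oxygen effect in AAP was smaller than in NC by an interaction of -0.74 ± 0.15 (adjusted p = 0.0088; -0.67 and 0.0127 without that array). The corresponding difference between AAC and AAP, 0.47, missed the threshold (adjusted p = 0.0893; 0.40 and 0.127 without that array), and passed it when AAP aerobic replicate 2 was left out (0.61, adjusted p = 0.0085).

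Between strains, DER1 was 1.34-fold higher in AAC than in NC in aerobic culture (0.42 ± 0.11, adjusted p = 0.013). In anaerobic culture it was 1.36-fold lower in AAP than in NC (-0.44 ± 0.11, adjusted p = 0.011) and 1.51-fold higher in AAC than in AAP (0.59 ± 0.11, adjusted p = 0.000974). The difference of AAP from NC was lost without AAP anaerobic replicate 1 (adjusted p = 0.0595) or NC anaerobic replicate 3 (0.0526). In aerobic culture AAP against NC gave 0.31 (95% interval 0.08 to 0.53, adjusted p = 0.337; 0.23 and 0.7 without the array that stood apart), which passed the threshold only with AAP aerobic replicate 2 left out (0.45, adjusted p = 0.024). AAC against NC in anaerobic culture gave 0.15 (-0.07 to 0.38, adjusted p = 0.393), AAC against AAP in aerobic culture 0.12 (adjusted p = 0.571; 0.19 and 0.226 without that array), and the interaction of AAC and NC -0.27 (0.344).

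UBC7 encodes the ubiquitin-conjugating enzyme that works with the Hrd1 ligase. In aerobic culture its log2 signal was 7.92, 8.02 and 7.99 in NC, 8.26, 8.14 and 8.09 in AAC, and 8.22, 8.15 and 8.32 in AAP. The anaerobic arrays gave 8.65, 8.53 and 8.48 in NC, 8.66, 8.69 and 8.71 in AAC, and 8.36, 8.35 and 8.59 in AAP. In each strain the anaerobic arrays lay above the aerobic ones, and in anaerobic culture the AAP arrays lay below the AAC arrays and overlapped those of NC.

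UBC7 rose 1.35-fold over the strains without oxygen (0.43 ± 0.04, adjusted p = 9.53e-08; 0.45 without the array that stood apart), 1.49-fold in NC (0.58 ± 0.07, adjusted p = 3.71e-06) and 1.43-fold in AAC (0.52 ± 0.07, adjusted p = 1.28e-05). In AAP the rise was 1.15-fold (0.20 ± 0.07, adjusted p = 0.0263; 0.25 without the array that stood apart). That call was lost without AAP aerobic replicate 1 (adjusted p = 0.0629), AAP aerobic replicate 2 (0.0975) or AAP anaerobic replicate 3 (0.142), with arrays centred on their medians (0.0516) and with only the groups compared in the fit (0.116). The oxygen effect in AAP was below that in NC by an interaction of -0.37 ± 0.10 (adjusted p = 0.0254; -0.33 and 0.0436 without the array that stood apart), and the call was lost without NC aerobic replicate 1 (0.0661), AAP anaerobic replicate 1 (0.073) or 2 (0.0631), or NC anaerobic replicate 2 (0.0512), and with only the groups compared in the fit (0.0571). The interaction between AAC and AAP was 0.32 (adjusted p = 0.0807; 0.27 and 0.11 without that array), and it passed the threshold without AAP aerobic replicate 2 (0.36, adjusted p = 0.0451) or AAP anaerobic replicate 3 (0.39, adjusted p = 0.0167).

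In anaerobic culture UBC7 was 1.19-fold higher in AAC than in AAP (0.25 ± 0.07, adjusted p = 0.0109), which was lost without AAP anaerobic replicate 1 (0.0568) or 2 (0.054). In aerobic culture AAC against NC gave 0.19 (95% interval 0.04 to 0.33, adjusted p = 0.0641), which passed without the array that stood apart (adjusted p = 0.0392). AAP against NC gave 0.25 in aerobic culture (0.11 to 0.40, adjusted p = 0.175; 0.21 and 0.354 without that array) and -0.12 in anaerobic culture (-0.27 to 0.02, adjusted p = 0.212); the latter passed without AAP anaerobic replicate 3 (-0.20, adjusted p = 0.0456). AAC against AAP in aerobic culture gave -0.06 (-0.02 without the array that stood apart), AAC against NC in anaerobic culture 0.13 and the interaction of AAC and NC -0.06, none past the threshold.

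CUE1 encodes the membrane protein that recruits and activates Ubc7. Its log2 signal in aerobic culture was 8.35, 8.41 and 8.31 in NC, 8.21, 8.27 and 8.30 in AAC, and 8.25, 8.32 and 8.36 in AAP. Under anaerobic conditions it was 8.68, 8.78 and 8.77 in NC, 8.67, 8.65 and 8.48 in AAC, and 8.53, 8.58 and 8.78 in AAP. All 9 anaerobic arrays lay above all 9 aerobic arrays. How many of all probe sets separate in this way was not counted. Within NC, AAC and AAP the conditions did not overlap for 62.8%, 57.1% and 46.2% of them. Within each condition the AAC arrays lay just below those of NC without overlap, as for 51.7% (aerobic) and 29.2% (anaerobic) of all probe sets, and the AAP arrays overlapped both.

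Anaerobic culture raised CUE1 1.27-fold over the strains (0.35 ± 0.04, adjusted p = 9e-07; 0.35 without the array that stood apart). By strain the rise was 1.31-fold in NC (0.38 ± 0.07, adjusted p = 0.000166), 1.26-fold in AAC (0.34 ± 0.07, adjusted p = 0.00056) and 1.24-fold in AAP (0.31 ± 0.07, adjusted p = 0.0013; 0.34 without that array). The interactions were -0.05 for AAC and NC (95% interval -0.24 to 0.15), -0.07 for AAP and NC (-0.27 to 0.13) and 0.02 for AAC and AAP (-0.17 to 0.22), none past the threshold with or without that array. AAC against NC gave -0.10 in aerobic culture (-0.23 to 0.04, adjusted p = 0.323) and -0.14 in anaerobic culture (-0.28 to -0.00, adjusted p = 0.179), neither past the threshold. AAC against AAP gave -0.05 in aerobic culture and -0.03 in anaerobic culture, and AAP against NC gave -0.04 in aerobic culture (-0.07 without that array). AAP against NC in anaerobic culture gave -0.11 for CUE1 (-0.25 to 0.02, adjusted p = 0.219), which passed without AAP anaerobic replicate 3 (-0.19, adjusted p = 0.0449).

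**Figure D2:**
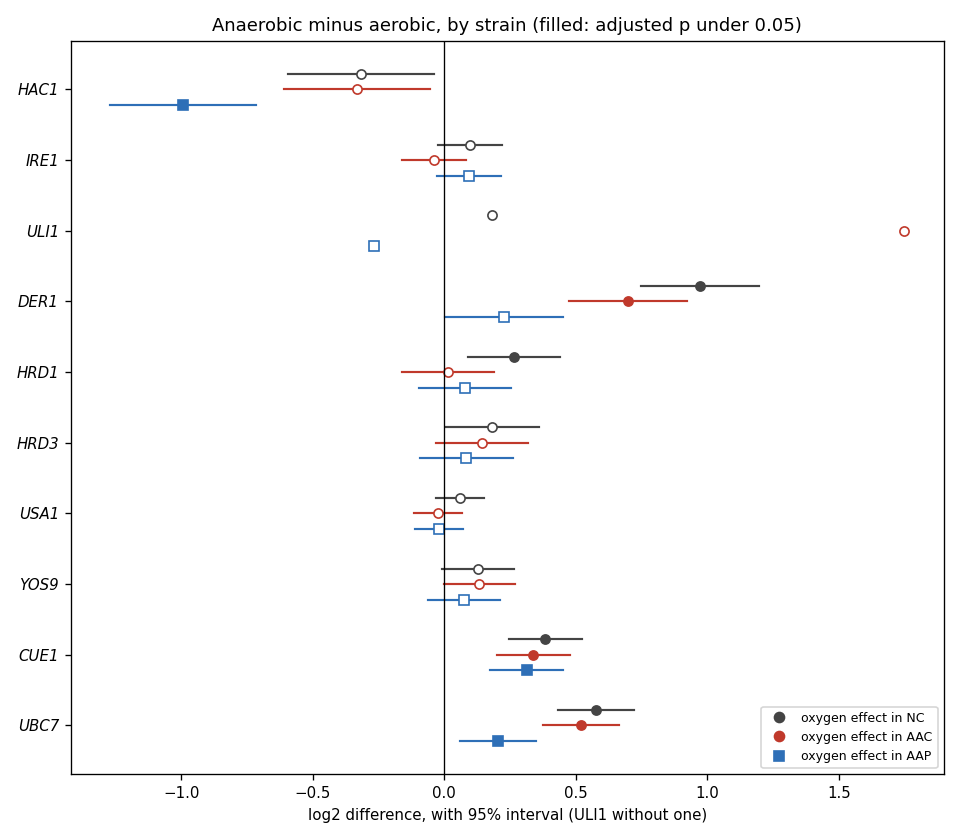
Anaerobic minus aerobic log2 difference (x axis) of each gene (y axis) in NC, AAC and AAP; bars are 95% intervals and filled points passed an adjusted p of 0.05. ULI1 is shown with no interval because it was picked by these values. CUE1 has nearly the same difference in each strain (0.31 to 0.38), while DER1 ranges from 0.23 in AAP to 0.97 in NC and HAC1 from -0.99 in AAP to -0.32 in NC.

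HRD1 encodes the RING ubiquitin ligase at the centre of the complex. In aerobic culture its log2 signal was 6.76, 6.88 and 6.86 in NC, 7.10, 7.18 and 7.27 in AAC, and 7.04, 6.84 and 7.04 in AAP. Without oxygen the values were 7.22, 7.05 and 7.04 in NC, 7.29, 7.27 and 7.04 in AAC, and 6.93, 7.16 and 7.08 in AAP. The aerobic NC arrays were below those of aerobic AAC and of anaerobic NC, and along the order of means each group overlapped the next.

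HRD1 was 1.27-fold higher in AAC than in NC in aerobic culture (0.34 ± 0.08, adjusted p = 0.0106), which was lost without AAC aerobic replicate 3 (0.052) or NC aerobic replicate 1 (0.051). It rose 1.20-fold without oxygen in NC (0.27 ± 0.08, adjusted p = 0.0144), which was lost without replicate 1 of NC in aerobic (0.062) or anaerobic culture (0.0631). The effects in AAC and AAP were 0.01 (95% interval -0.16 to 0.19) and 0.08 (-0.10 to 0.25; 0.11 without the array that stood apart). The other strain differences were not called: AAC against AAP gave 0.21 in aerobic culture (adjusted p = 0.16; 0.24 and 0.0654 without that array) and 0.14 in anaerobic culture, AAP against NC gave 0.14 (0.11) and -0.05, and AAC against NC in anaerobic culture gave 0.09. The interactions lay between -0.25 and -0.06, none past the threshold. The mean oxygen effect of HRD1, 0.12 ± 0.05, was just past the threshold (adjusted p = 0.0398; 0.13 and 0.0293 without the array that stood apart). It was not past the threshold with the replicate number as a block (adjusted p = 0.0551), with arrays centred on their medians (0.0507) or with any of 10 single arrays left out (adjusted p up to 0.0851): replicates 1 and 2 of aerobic and of anaerobic AAC, replicates 1 and 3 of aerobic NC, replicate 1 of anaerobic NC, replicate 2 of aerobic AAP and replicates 2 and 3 of anaerobic AAP.

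HRD3, whose product stabilises Hrd1 and receives substrates in the lumen, ranged from 6.41 to 6.81 over the arrays. Its mean oxygen effect was 0.14 ± 0.05 (adjusted p = 0.0208; 0.16 and 0.00515 without the array that stood apart). By strain it was 0.18 in NC (adjusted p = 0.0773; 0.048 without that array), 0.14 in AAC (0.172) and 0.08 in AAP (0.452; 0.16 and 0.151 without that array). Leaving out NC anaerobic replicate 1 brought NC to 0.24 (adjusted p = 0.037), and leaving out AAC aerobic replicate 3 brought AAC to 0.22 (0.0495). Its strain differences lay between -0.04 and 0.13 and its interactions between -0.10 and 0.06, none past the threshold. Without the array that stood apart, AAC against AAP in aerobic culture gave 0.14 and AAP against NC gave -0.01, neither past the threshold. Neighbouring groups overlapped throughout.

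YOS9, the lectin that reads trimmed glycans on ERAD substrates, ranged from 6.06 to 6.39. Its mean oxygen effect was 0.11 ± 0.04 (adjusted p = 0.0146; 0.12 and 0.011 without the array that stood apart), with 0.13, 0.13 and 0.08 in NC, AAC and AAP (0.10 in AAP without that array), none of which passed alone; NC passed without NC anaerobic replicate 1 (0.19, adjusted p = 0.0244). The strain differences of YOS9 lay between -0.10 and 0.06 and its interactions between -0.05 and 0.06, none past the threshold. USA1, the scaffold that joins Der1 to Hrd1, ranged from 5.88 to 6.06, near background, and its mean oxygen effect was 0.01 (95% interval -0.05 to 0.06, adjusted p = 0.86; 0.01 without that array), with -0.02 to 0.06 by strain. USA1 differed between AAC and NC in aerobic culture by 0.12 (0.03 to 0.21, adjusted p = 0.0653), which passed without the array that stood apart (adjusted p = 0.0496); its other strain differences lay between -0.01 and 0.07 and its interactions between -0.08 and -0.00, none past the threshold.

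**Figure D3:**
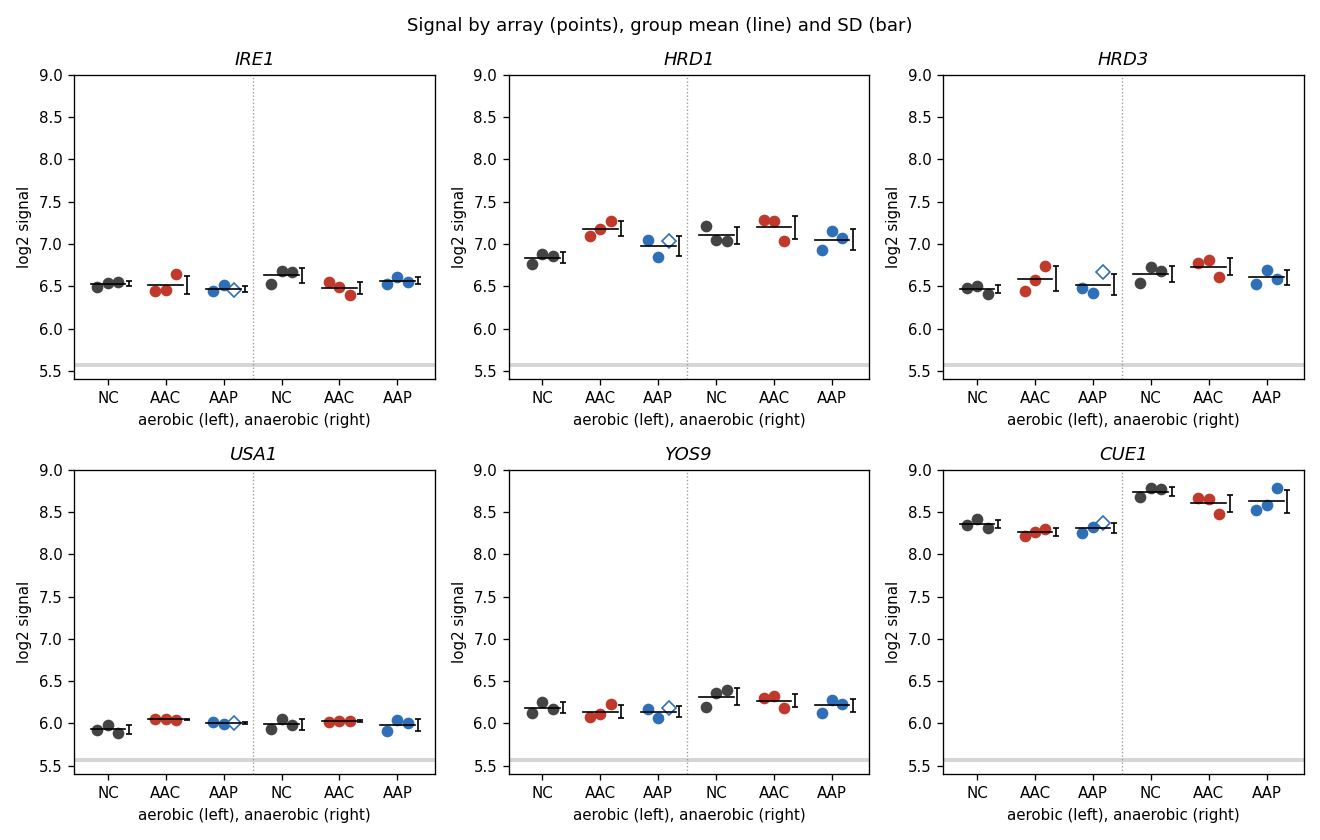
Log2 signal (y axis) of IRE1, HRD1, HRD3, USA1, YOS9 and CUE1 by array and group (x axis), drawn as for ULI1, HAC1, DER1 and UBC7. CUE1 is higher on all 9 anaerobic arrays than on the aerobic ones, a separation not counted over all probe sets. IRE1 (6.40 to 6.69) and USA1 (5.88 to 6.06) vary little.

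Counted over the 9 genes, 6 were higher and 1 was lower without oxygen in the mean of the strains, and the same counts were found without the array that stood apart. Over all 5498 probe sets 61.6% passed the same test, 31.2% higher and 30.4% lower (66.8% in either direction without that array), so most probe sets passed in this contrast. The 9 genes had a median log2 difference of 0.12 (0.13 without that array), beside 0.00 for all tested. In NC 4 were higher and 0 lower, where 50.3% of all probe sets passed and 22.2% were higher (5 higher and 1 lower, and 56.2%, without that array). In AAC 3 were higher, where 44.5% passed and 21.7% were higher (3 higher and 1 lower, and 51.6%). In AAP 2 were higher and 1 lower, where 38.4% passed, 21.2% higher and 17.2% lower (3 and 1, and 41.9%).

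Strain differences were fewer. In aerobic culture 2 of the 9 genes, DER1 and HRD1, were higher in AAC than in NC. The background was 19.4% of all probe sets called, with 9.42% of all probe sets called higher. Without the array that stood apart these genes were joined by USA1 and UBC7, against 30.0% called. For AAP against NC in aerobic culture limma called 0 genes of the 9 and 0.200% of all probe sets (0 and 0.600% without that array). Of the 9 genes 2 had an unadjusted p under 0.05, beside 515 of all 5498 probe sets (1 and 407 without that array). For AAC against AAP in aerobic culture 0 were called by limma and 2 had an unadjusted p under 0.05, with a background of 3.97%. That background was 28.1% without the array, with the same counts of 0 and 2 among the 9 genes. With the replicate number as a block it fell from 218 to 140 probe sets, with 0 of the 9 genes called.

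In anaerobic culture limma called 0 of the 9 between AAC and NC, with a background of 12.0% (0 and 19.4% without that array). At an unadjusted p under 0.05 there were 2 of the 9, beside 1471 of all 5498 probe sets (2 and 1783 without that array). Against NC, AAP had 2 lower, HAC1 and DER1, with a background of 21.0% called (2 lower and 31.8% without that array). Of all probe sets 8.06% were called lower there. AAC against AAP had 3 higher, HAC1, DER1 and UBC7, with a background of 33.0% called (3 higher and 41.4% without that array). Of all probe sets 13.3% were called higher in AAC than in AAP.

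**Figure D4:**
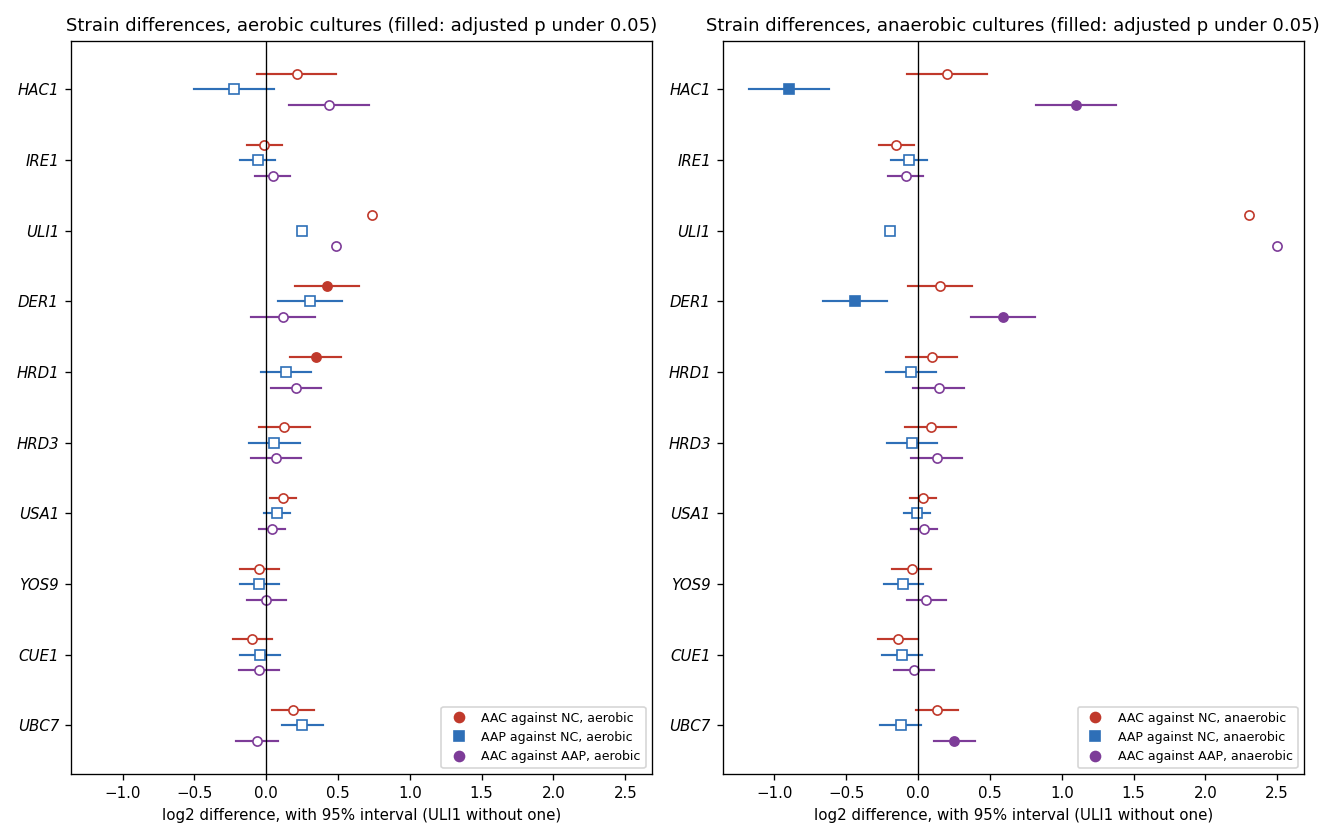
Log2 differences between strains (x axis) of each gene (y axis) in aerobic and anaerobic culture, with 95% intervals; filled points passed an adjusted p of 0.05, and ULI1 is drawn with no interval. In anaerobic culture HAC1 differs by -0.90 for AAP against NC and by 1.10 for AAC against AAP, while AAC against NC gives 0.20.

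Of the interactions, AAP and NC had 3 genes, HAC1, DER1 and UBC7, with a lower oxygen effect in AAP, where 12.5% of all probe sets passed and 4.47% were lower (the same 3 and 9.91% without the array that stood apart). AAC and NC had 0 called by limma, with a background of 2.87% called (0 and 12.1% without that array). At an unadjusted p under 0.05 there was 1 of the 9 genes, beside 1028 of all 5498 probe sets (1 and 1451 without that array). AAC and AAP had 0 called, with a background of 3.55% called. At an unadjusted p under 0.05 there were 3 of the 9, beside 1157 of all 5498 probe sets. Without that array 1 gene, HAC1, was called, against 5.20%.

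Other genes of the same pathways were then set beside the members. Of all probe sets 31.2% were higher and 30.4% lower in the mean oxygen effect. By strain 22.2%, 21.7% and 21.2% of all probe sets were higher in NC, AAC and AAP. Of 10 folding genes known as Hac1 targets, all 10 were higher without oxygen in the mean of the strains, with a median log2 difference of 0.36 (10 and 0.40 without the array that stood apart). EUG1, a relative of protein disulfide isomerase, rose 4.39-fold (2.14 ± 0.06, adjusted p = 1.06e-13), MPD1, another relative, rose by 0.55 (adjusted p = 2.05e-05) and SCJ1, a cochaperone, rose by 0.41 (adjusted p = 4.97e-06). By strain, 10 were higher in NC (median 0.83), 5 in AAC (median 0.30; 6 without the array that stood apart) and 1 in AAP, EUG1 (median 0.09; 2 and 0.18 without that array).

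In aerobic culture all 10 folding genes were higher in AAC than in NC, with a median of 0.59 beside -0.02 over all probe sets tested. Of all probe sets 9.42% were higher in that contrast. SIL1, the nucleotide exchange factor of Kar2, was higher by 0.83 ± 0.13 (adjusted p = 0.0016). KAR2, the Hsp70 chaperone, was higher by 0.77 ± 0.11 (adjusted p = 0.00076), and PDI1, protein disulfide isomerase, by 0.45 ± 0.06 (adjusted p = 0.000605). None of the 10 passed between AAP and NC in aerobic culture by limma, where 0.200% of all probe sets passed. At an unadjusted p under 0.05 there were 9 of the 10, beside 515 of all 5498 probe sets. The median was 0.46 for the 10 and -0.01 for all tested. Without the array that stood apart 7 of the 10 and 407 of all tested had an unadjusted p under 0.05. The median of the 10 was then 0.32.

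In anaerobic culture 0 of the 10 were called by limma between AAC and NC, where 12.0% of all probe sets were called. Without that array 2 were called, against 19.4%. At an unadjusted p under 0.05 there were 4 of the 10, beside 1471 of all 5498 probe sets. In AAP 4 were lower than in NC, namely ERO1, FPR2, MPD1 and SIL1 (5 without that array). Between AAC and AAP 7 were higher in AAC. The oxygen effect was lower in AAP than in NC for 7 of the 10 (6 without that array), among them the oxidase gene ERO1 (-1.24 ± 0.27, adjusted p = 0.0113; -0.99 and 0.00886 without that array). Over all probe sets 8.06% were lower in anaerobic AAP than in NC and 13.3% were higher in anaerobic AAC than in AAP. The oxygen effect was lower in AAP than in NC for 4.47% of all probe sets. Between AAC and NC the differences in oxygen effect of all 10 were below 0 (median -0.38). None was called by limma, where 2.87% of all probe sets were called. At an unadjusted p under 0.05 there were 7 of the 10, beside 1028 of all 5498 probe sets. Without the array that stood apart 4 were called, all with a lower oxygen effect in AAC, against 12.1%. Between AAC and AAP 0 of the 10 were called, against 3.55%. ERO1 averaged 9.45 ± 0.14 (SD, n = 3) in anaerobic NC, 9.88 ± 0.05 in AAC and 8.86 ± 0.10 in AAP, and in aerobic culture 8.54 ± 0.07, 9.60 ± 0.15 and 9.19 ± 0.58 (8.94 ± 0.52 in AAP without the array that stood apart, n = 2).

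**Figure D5:**
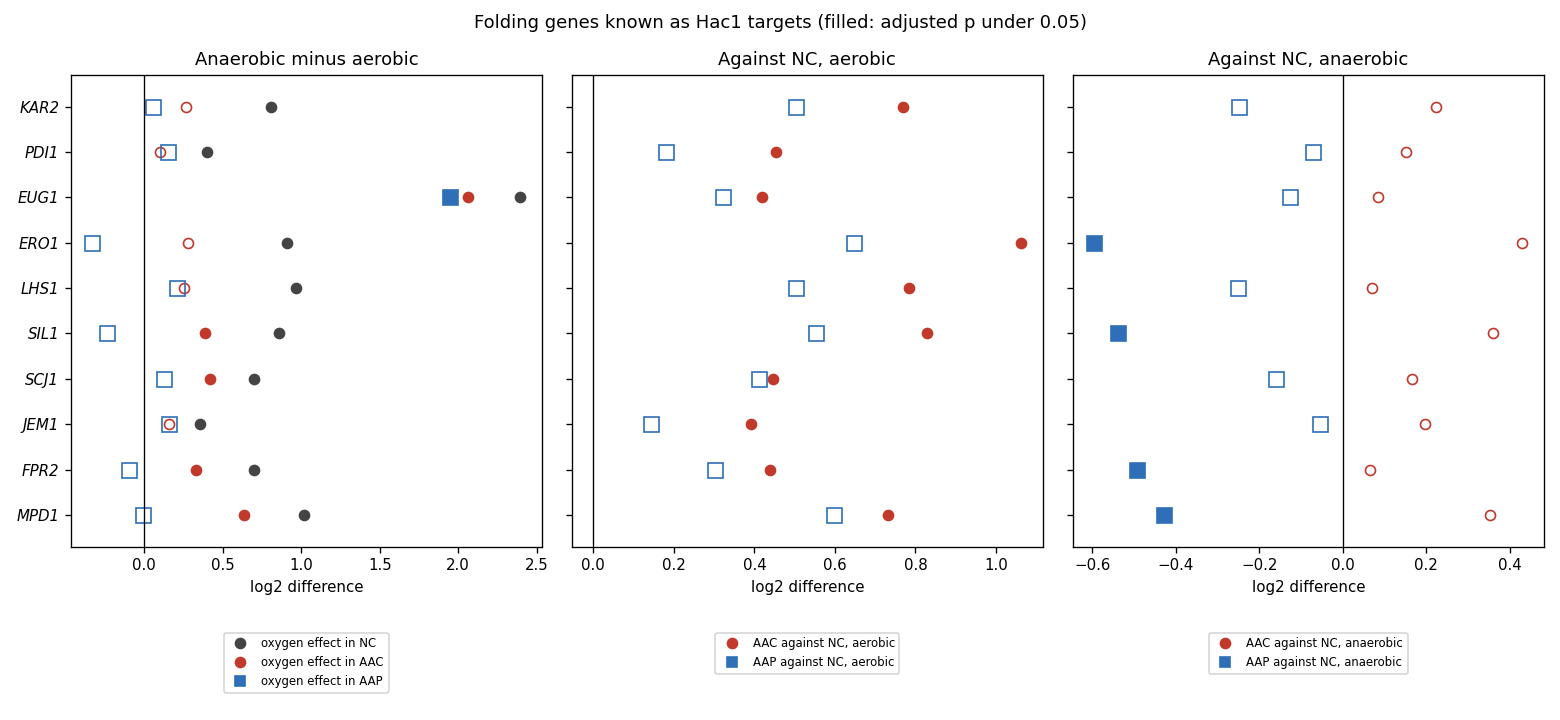
Log2 differences (x axis) of 10 folding genes known as Hac1 targets (y axis). The left panel shows the oxygen effect by strain, and the other panels show AAC and AAP against NC in aerobic and in anaerobic culture; filled points passed an adjusted p of 0.05. All 10 are filled for AAC against NC in aerobic culture, and in anaerobic culture 4 are filled, all for AAP against NC and below 0.

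Other ERAD steps were counted in the same way. The counts in the mean oxygen effect, here and in the next paragraph, stand beside 31.2% higher and 30.4% lower over all probe sets. Of 6 other ubiquitin enzymes of the endoplasmic reticulum and inner nuclear membrane, 5 were higher and 0 lower in the mean oxygen effect (median 0.25), led by UBC6 (0.45, adjusted p = 4.72e-08), the conjugating enzyme of the Doa10 branch, and by ASI2 (0.35) and ASI1 (0.25) of the Asi ligase complex. Of 7 genes for extraction by the Cdc48 ATPase 4 were higher and 2 lower (median 0.14). Among them DFM1, a relative of DER1, rose by 0.42 (adjusted p = 2.7e-05), UBX4 rose by 0.27 and VMS1 fell by 0.17. DFM1 was also higher in AAC than in NC in aerobic culture (0.39, adjusted p = 0.0214), a call lost without AAC aerobic replicate 2 or 3 or NC aerobic replicate 1 or 3 (adjusted p up to 0.0776).

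Of 8 genes for glycan trimming and reading, 2 were higher and 0 lower (median -0.01), PNG1 by 0.21 and HTM1, a mannosidase gene, by 0.13. Of 5 genes for delivery to the proteasome UFD2 alone passed, higher by 0.15; without the array that stood apart 1 gene was higher and 1 lower. Of 7 partners in the signalling of the response, 1 was higher and 4 were lower (median -0.11; 1 and 5 without that array): GCN4, a transcription factor that acts with Hac1, fell by 0.43 (adjusted p = 1.46e-07), DCR2, a phosphatase gene, fell by 0.27, and TPT1, a gene of the tRNA splicing pathway, rose by 0.32. In aerobic culture, AAC against NC, limma called 0 of the signalling, 0 of the other ubiquitin, 0 of the glycan and 0 of the delivery genes, with 1, 0, 2 and 0 at an unadjusted p under 0.05. Over all 5498 probe sets 19.4% were called in that contrast and 1883 had an unadjusted p under 0.05. Without the array that stood apart 1 signalling gene, 0 other ubiquitin genes, 2 glycan genes and 1 delivery gene were called, all lower in AAC. In the same fit 2 Cdc48 genes were higher. Of all 5498 probe sets 30.0% were then called, 936 of them lower and 714 higher in AAC.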

How the data were processed

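Log2 expression values on 18 arrays were used as deposited, 1 value per probe set and array; the log2 scale was read from their range, 4.85 to 12.8. PLIER and R 2.10.1 appear in the submitters' processing notes. How the signals were background-corrected and normalized, and the logarithm's base, is not given in the sources used here. Symbols came from the platform annotation, with 12 updated. The table held 10928 probe sets, 7244 with a single gene, 1 with several genes and 3683 without. The 5498 of S. cerevisiae were tested, and 1747 of fission yeast set the background.

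limma 3.58.1 in R 4.3.3 (lmFit, eBayes; 12 residual and 3.1 prior degrees of freedom) fitted 1 mean per group over all arrays. The 13 contrasts were tested two-sided with Benjamini-Hochberg adjustment over all 5498 probe sets and a threshold of 0.05. The replicates are biological per the labels, and 3 arrays per group limit the precision. The members and gene lists were chosen with earlier results of these data known, so no list is independent evidence. A test planned for the mean oxygen effect of ULI1 is not given, since the arrays that chose the gene also enter it. By the rule for named genes the text gives all members in every contrast, those not called partly as a range, and names up to 3 called genes per list with the smallest p for the mean oxygen effect and for AAC against NC, and the 6 and 4 probe sets most like ULI1 and HAC1; further Hac1 targets were named after their values were seen.

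No label ties replicate numbers to a batch. Deviations from group means correlated above 0.1 in all 3 same-number pairs only among aerobic groups: 0.126, 0.233 and 0.326 between AAC and NC, and 0.168, 0.249 and 0.456 between AAC and AAP, the latter with the array that stood apart. Alternatives were quantile normalization, median centring, a filter on dim probe sets (above background on at least 3 arrays, 5101 kept), trend and robust eBayes, fits limited to the groups compared, the replicate block and leaving out arrays. No genome coordinates or sequences are printed.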

Additional observations from a re-analysis of the deposited data

Results flagged for a closer look

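The oxygen effect of 3 genes differed between AAP and NC by a test of the difference itself, the interaction term in limma. For HAC1 it was -0.67 (adjusted p = 0.031), with the level falling in AAP by 0.99 and a difference in NC of -0.32. For DER1 it was -0.74 (adjusted p = 0.0088), with an oxygen effect of 0.97 in NC and 0.23 in AAP. For UBC7 it was -0.37 (adjusted p = 0.0254), with 0.58 in NC and 0.20 in AAP. Without AAP aerobic replicate 3 the interactions were -0.84, -0.67 and -0.33 for HAC1, DER1 and UBC7, all past the threshold. Those of HAC1 and UBC7 lost the call with only the groups compared in the fit (adjusted p = 0.0745 and 0.0571). Both also lost it when some other single arrays were left out, while the call of DER1 held in every setting. The plasmid tpi1 signal also differed between AAP and NC, by group means of 12.4 and 6.71 in anaerobic culture, and its part in these differences was not tested.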

How the results depend on the processing

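Of the 27 member results past the threshold, 19 stayed past it in every alternative setting and 8 lost it in some; none changed sign, and 17 of the 90 others passed in some setting. The count for AAC against NC in aerobic culture, 2, was 5 with only the groups compared and 4 when AAP aerobic replicate 3 was left out. The interaction of AAP and NC, 3, was 1 with only the groups compared, and that of AAC and AAP, 0, was 1 without that array. Leaving out in turn each array of the groups a contrast compares gave 6 to 8 genes called in the mean oxygen effect, 3 to 5 in NC, 3 to 4 in AAC and 2 to 4 in AAP. It gave, in aerobic culture, 1 to 2 for AAC against NC, 0 to 1 for AAP against NC and 0 to 0 for AAC against AAP, and in anaerobic culture 0 to 1, 1 to 4 and 2 to 3. The interactions gave 0 to 0 for AAC and NC, 1 to 3 for AAP and NC and 0 to 2 for AAC and AAP. Fewer arrays enter these fits; the cause of other changes was not tested. With the replicate number as a block, 6 genes were called in the mean oxygen effect, since HRD1 was lost (0.12, adjusted p = 0.0551), and no other member call changed. Over all probe sets, fits to only the groups compared moved the calls from 1067 to 2079 for AAC against NC, 11 to 1 for AAP against NC and 218 to 0 for AAC against AAP in aerobic culture, and from 158 to 582 (AAC and NC), 687 to 308 (AAP and NC) and 195 to 92 (AAC and AAP) in the interactions. Leaving out AAP aerobic replicate 3 moved them to 1650, 33 and 1546 in aerobic culture, from 660 to 1069 (AAC against NC) and 1153 to 1749 (AAP against NC) in anaerobic culture, and to 667 in the interaction of AAC and NC. Signals near background limit ULI1, USA1 and YOS9.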
